A study of Mus musculus with 12 samples.

Results

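Aortas taken 7 days after infusion of porcine pancreatic elastase (PPE) were compared with aortas taken 7 days after infusion of saline. The comparison uses 8 of the series' 12 RNA-seq libraries, namely all 4 of the saline group and all 4 of the PPE week 1 group, chosen by their labels and not by any measured value. The mice of both groups were male C57BL/6J animals aged 10 weeks, without any engineered allele named in the labels, and the fluid was infused into the aorta below the kidneys. The remaining 4 libraries, PPE week 2, came from PPE-infused mice whose aortas were taken at day 14. They entered the model only to help estimate the spread between animals. Both groups compared had the surgery and the infusion and were harvested on the same day. The labels give no batch, and none could be examined.

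Elastase digests elastic fibres, the rubber-like lamellae between the smooth muscle layers of the aorta, and the elastase-infused mouse aorta dilates in the following days and weeks. The wall holds smooth muscle in its media, endothelium on its inner face, and fibroblasts, nerves, fat and resident immune cells around it. In a bulk extract, fewer cells of a type and less RNA per cell cannot be told apart. Loss of contractile smooth muscle RNA and gain of macrophage RNA are the best known changes of this model. They are given here only as a measure against which other genes can be read. Of 27 tested contractile genes 15 fell and none rose. Of 22 tested macrophage and monocyte genes 6 rose and none fell. All PPE week 1 libraries lay above all saline libraries for 18 of the 22 and below them for 2. DESeq2 called 15 higher and 0 lower, and limma-voom 5 and 0. EdgeR with the 8 libraries alone called 18 higher and 2 lower. The 6 became 1 to 3 without any 1 of saline replicates 1, 2, 3 and 4 and PPE week 1 replicates 1, 2 and 4, and 11 without any 1 of PPE week 2 replicates 1, 3 and 4.

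The total count per library was between 8343313 and 12269131 (exact permutation p = 0.543 between the groups, two-sided, n = 4 each). The precursor of ribosomal RNA, NR_046233, took 36.2 to 49.9% of the counts in saline and 21.004 to 34.6% at PPE week 1. The means were 41.3% ± 6.48 and 30.4% ± 6.34 (SD, n = 4 each, two-sided exact permutation p = 0.0286, the smallest that 4 against 4 allows). Without any 1 of the 8 libraries that p was 0.0571, and the difference lay between -7.87 and -12.7 percentage points. Every comparison below is between the same libraries. With the share as a covariate in edgeR 23 accessions were higher and 59 lower, where the model without it called 508 (3.98%) and 499 (3.91%), or 7.89% in either direction. Its part in the results was not otherwise tested. The defining markers of aortic smooth muscle were present in every library, Acta2 at 3220 to 4329 CPM in saline and 1167 to 2065 CPM at PPE week 1, where CPM are counts per 1000000 counts. Genes with several RefSeq accessions were less often counted well enough to test. Of genes with 1 accession 55.3% could be tested, but 32.8% of those with 2 or more. Pecam1, an endothelial gene, was at 0 in all 8 libraries. A gene listed at 0 is therefore not shown to be absent.

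Of 12273 tested genes, 506 were higher at PPE week 1 and 493 lower by edgeR's quasi-likelihood test (Benjamini-Hochberg adjusted p under 0.05), which is 4.12% and 4.02%, or 8.14% in either direction. The 4 PPE libraries lay wholly above the 4 saline libraries for 1516 genes (12.4%) and wholly below for 1131 (9.22%). The median log2 fold change of all tested genes was 0.00. Scaling by library size alone moved that median to 0.28 and the split of called accessions from 508 higher and 499 lower to 1034 and 195. The fold changes below are therefore read relative to the median of all genes. Library sizes here and below include the NR_046233 counts, whose share differed between the groups. How much of the shift goes with that share was not tested. Whichever of the 8 libraries was left out, 132 of the 506 higher and 198 of the 493 lower genes kept their call. The counts of called accessions then lay between 156 and 342 higher and between 222 and 361 lower, with the lowest counts of both without PPE week 1 replicate 2. Leaving out the week 2 libraries raised them to 1113 and 913, and leaving out 1 of them gave 560 to 789 higher and 540 to 607 lower. DESeq2 gave 857 and 789. In brackets below, 2 mean CPM values are those of saline and of PPE week 1, in that order, and a value with ± is a log2 fold change with its standard error (SE).

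The genes of smallest p that rose included a catalytic RNA, a killer protein of mitochondria, ferritin and regulators of inflammatory signalling. These genes, and the lower ones of the next paragraph, were taken only from genes whose groups did not overlap. Rpph1 is the RNA component of ribonuclease P, which trims transfer RNA precursors (chromosome 14, 50807447 to 50807771, mm10). It was at 259.7, 238, 253 and 220.1 CPM in saline replicates 1 to 4 and 630.0, 607, 641 and 495 CPM at PPE week 1. For Rpph1 the log2 fold change was 1.29 ± 0.16 SE (adjusted p = 0.000592). All 4 PPE libraries held at least 495 CPM and no saline library more than 259.7 CPM. Bak1, a pore former of the outer mitochondrial membrane in apoptosis (chromosome 17, 27019812 to 27028627), was at 45.6, 36.2, 37.1 and 38.4 CPM in saline replicates 1 to 4 and 100.4, 97.5, 81.3 and 90.002 CPM at PPE week 1. For Bak1 the log2 fold change was 1.23 ± 0.16 SE (adjusted p = 0.000679). Csrnp1, a nuclear protein induced by cytokine and growth signals (chromosome 9, 119971163 to 119984742), was at 7.4002, 5.66, 6.93 and 6.47 CPM in saline replicates 1 to 4 and 25.5, 44.9, 21.4 and 28.6 CPM at PPE week 1. PPE week 1 replicate 2 was the highest, and the lowest PPE library was above every saline library (log2 fold change 2.18 ± 0.29 SE, adjusted p = 0.00081). Ftl1, the ferritin light chain that stores iron (chromosome 7, 45457944 to 45459886), was at 302 to 378 CPM in saline and 571 to 773 CPM at PPE week 1. For Ftl1 the log2 fold change was 0.99 ± 0.13 SE (adjusted p = 0.0011). Map3k1, a kinase upstream of JNK and NF-kappaB (chromosome 13, 111746428 to 111818269), was at 81.7 to 97.4 CPM in saline and 158 to 173 CPM at PPE week 1. For Map3k1 the log2 fold change was 0.88 ± 0.12 SE (adjusted p = 0.00144). Of the other 7 of the 12 genes, Ubb-ps rose by 0.69 on the log2 scale, Crybg1 by 1.86, the inhibitory myeloid receptor Cd300a by 1.46 and Basp1 by 1.56. The Arp2/3 actin nucleator subunit Arpc3 rose by 0.96, the peroxidase Prdx5 by 1.08 and the interferon-induced helicase Helz2 by 1.86. Ubb-ps is a ubiquitin pseudogene, and reads of the parent gene Ubb cannot be told from its own. In the authors' deposited table, where 9.23% of accessions are higher and 8.18% lower, all 87 called genes of the naming rule have the same sign as here and an adjusted p under 0.05. That table comes from the same libraries and the 87 genes were picked for their calls here, so the match is no independent evidence.

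Among the genes of smallest p that fell were secreted and enzymatic genes as well as actin regulators. Cytl1, a small secreted protein first known from cartilage and blood progenitors (chromosome 5, 37735519 to 37739820), was at 57.5, 67.6, 45.2 and 76.6 CPM in saline replicates 1 to 4 and 6.88, 4.87, 10.03 and 8.28 CPM at PPE week 1. For Cytl1 the log2 fold change was -3.03 ± 0.31 SE (adjusted p = 0.000252). The groups were far apart, since the highest PPE library was 10.0 CPM and the lowest saline library 45.2 CPM. Fmo2, a flavin monooxygenase that oxidises drugs and other small molecules (chromosome 1, 162874317 to 162898758), was at 344, 338, 439 and 430.4 CPM in saline replicates 1 to 4 and 81.3, 43.9, 78.8 and 87.8 CPM at PPE week 1. For Fmo2 the log2 fold change was -2.41 ± 0.24 SE (adjusted p = 0.00051). Pam, which amidates peptide hormones (chromosome 1, 97821091 to 98095853), was at 1182 to 1596 CPM in saline and 457 to 588 CPM at PPE week 1. For Pam the log2 fold change was -1.36 ± 0.17 SE (adjusted p = 0.000632). Hsph1, a heat shock co-chaperone, was at 96.3 to 191 CPM in saline and 32.6 to 44.6 CPM at PPE week 1. Sema3c, a guidance cue for nerves and vessels, was at 49.7 to 105 CPM in saline and 12.5 to 26.3 CPM at PPE week 1. A gap between the groups was a condition for naming these genes. Nexn and Dstn, regulators of actin filaments, had log2 fold changes of -1.83 and -1.32, Cped1 -1.89 and the myosin phosphatase subunit Ppp1r12a -0.90. Oxct1, the enzyme that activates ketone bodies for use as fuel, had -0.98, and the nuclear noncoding RNA Malat1 -0.63. None of these 12 higher and 11 lower genes lost its call without any 1 library.

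**Figure D1:**
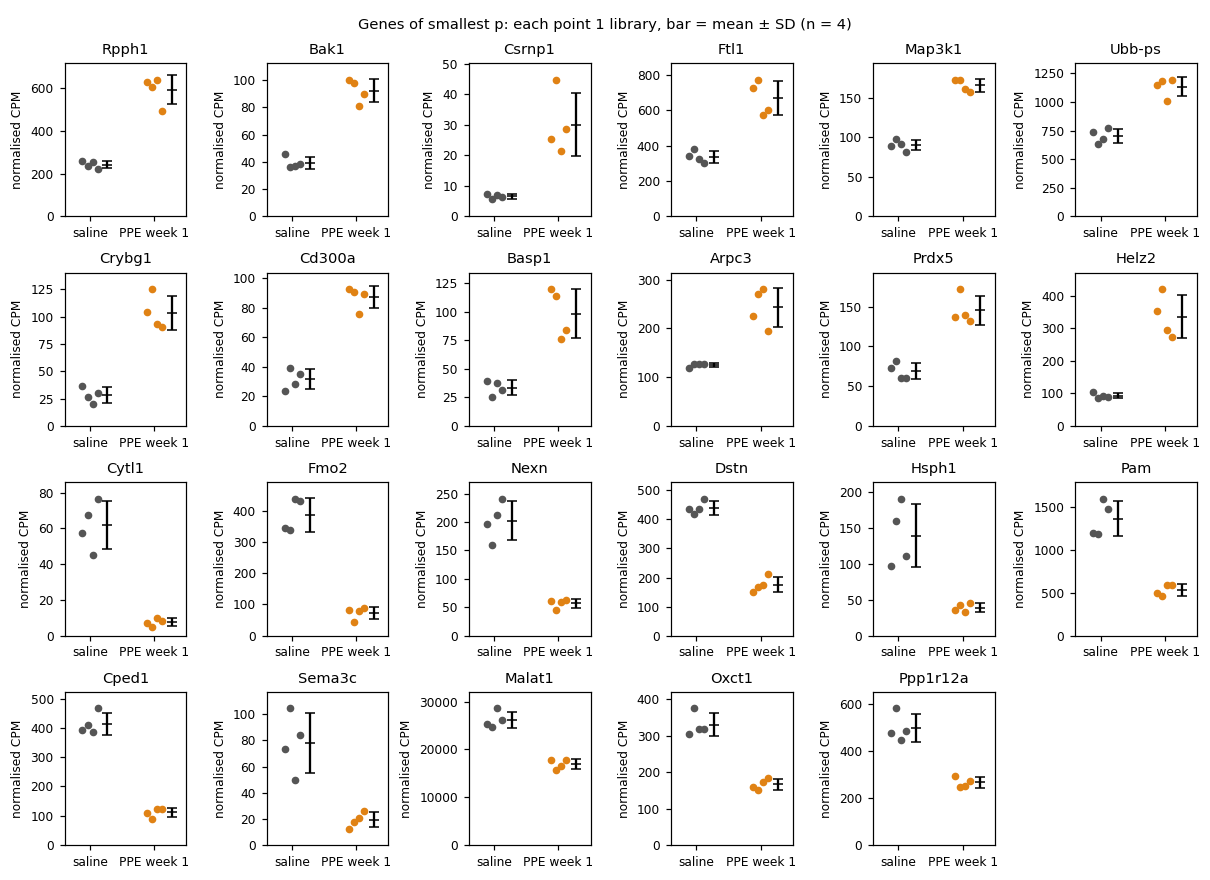
Normalised CPM of 12 higher and 11 lower genes of smallest p, outside the contractile, channel and macrophage lists. Each point is 1 library on a linear axis from 0, grey for saline and orange for PPE week 1, and the bar is mean ± SD (n = 4). The groups do not overlap in any panel because only genes without overlap were eligible.

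For 57 of the 87 named genes the call ended with the NR_046233 share as a covariate (adjusted p 0.0529 to 0.259). The share did not overlap between saline and PPE week 1, so covariate and group carry much of the same information. Of 98 named genes 2 changed sign under it, Ncl and Eef1a1, which were not called without it either. Of 42 gene lists with a call, 22 had none under that covariate. The named genes that remained called included Rpph1, Bak1, Csrnp1, Ftl1, Map3k1, Ubb-ps, Cd300a, Zfp36, Fos, Cfp, Pltp and Rpl29, which rose, and Cytl1, Fmo2, Nexn, Dstn, Hsph1, Pam, Cped1, Sema3c, Malat1, Oxct1, Dkk3, Rbpms, Dmd, Ntn1, Bmpr1a, Adamts1 and Rgs5, which fell. Library size scaling ended 13 calls of lower genes (adjusted p up to 0.758), those of Npas2, Car9, Ccnd2, Kcnq1ot1, Hyal1, Itgb3, Sec23a, Foxc1, Dnajc3, Col14a1, Igf2r, Fgf1 and Malat1. Limma-voom ended those of Car9, Zim1 and Hspa1a (up to 0.0787). The model without a low-count filter ended those of Ccl3, Itgb3, Rac2 and Igf2r (up to 0.0664).

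**Figure D2:**
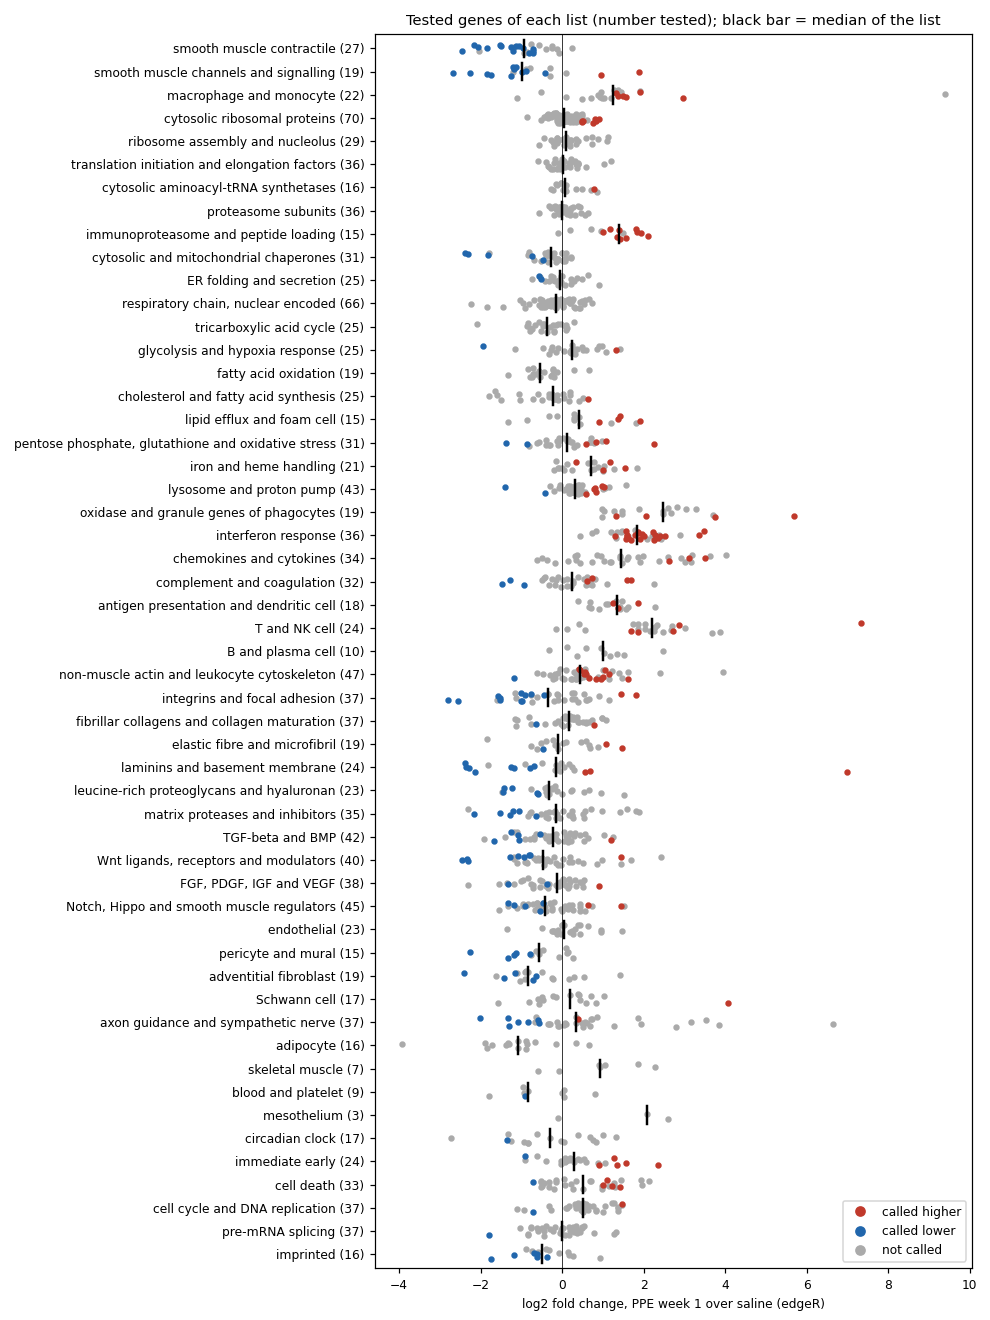
Log2 fold change of PPE week 1 over saline for every tested gene of each list, with the number tested in brackets. Red points were called higher and blue points lower by edgeR, grey points were not called and the black bar is the median of the list, which is 1.82 for interferon response and 0.01 for proteasome subunits.

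Cells cut proteins into peptides with the proteasome, and interferons make them swap its catalytic subunits for the immunoproteasome forms, whose peptides are carried by the TAP transporter onto class I molecules. Genes of this second set rose at PPE week 1, and those of the standard proteasome did not pass the test. Of 15 tested genes of the immunoproteasome and peptide loading 10 rose and none fell, and the 4 PPE libraries lay wholly above saline for 12. Of 36 tested standard subunits and assembly factors none was called in edgeR or DESeq2, 2 were higher and none lower at an unadjusted p under 0.05, and 2 lay wholly above. The medians were 1.39 and 0.01, beside 0.00 for all genes. Psmb8, a catalytic subunit of the immunoproteasome, was at 30.4, 35.6, 32.01 and 15.5 CPM in saline replicates 1 to 4 and 111, 115, 116 and 89.6 CPM at PPE week 1. For Psmb8 the log2 fold change was 1.93 ± 0.37 SE (adjusted p = 0.00814). Every PPE library was above every saline library, and the same held for Psmb10 (means 21.6 and 64.9 CPM, 1.58 ± 0.40) and for the activator subunit Psme1 (means 37.2 and 74.8 CPM, 1.01 ± 0.28). Psmb9, the third catalytic form, had a log2 fold change of 1.497 ± 0.59 without passing the test (adjusted p = 0.153). Psme4, the standard-list member of highest level, was at 179 ± 25.4 CPM in saline and 168 ± 16.1 CPM at PPE week 1 (-0.10 ± 0.13, adjusted p = 0.771). Its log2 fold change turned to 0.17 with library size scaling.

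The class I heavy chain H2-K1 was at 364, 311, 259 and 244 CPM in saline replicates 1 to 4 and 1078, 1290.0, 877 and 887 CPM at PPE week 1. For H2-K1 the log2 fold change was 1.81 ± 0.31 SE (adjusted p = 0.00706). B2m, the light chain shared by class I molecules, was at 876 to 1127 CPM in saline and 2264 to 3061 CPM at PPE week 1 (log2 fold change 1.35 ± 0.29 SE, adjusted p = 0.0184). Tap2, a subunit of the peptide transporter, was at 23.9 to 51.9 CPM in saline and 85.4 to 95.9 CPM at PPE week 1. For Tap2 the log2 fold change was 1.18 ± 0.24 SE (adjusted p = 0.00737). None of these ranges overlapped. H2-D1, H2-T23 and H2-Q4 rose as well, by 1.39, 1.42 and 2.11, and so did Nlrc5, the transactivator of class I genes, by 1.84. Class I genes have near-identical copies, and reads may have been split between them. In the same set Calr, an endoplasmic reticulum chaperone that holds class I molecules, did not pass the test (means 849 and 791 CPM, -0.10 ± 0.11, adjusted p = 0.67). The count of 10 was 4 without any 1 of saline replicates 3 and 4 and PPE week 1 replicate 2. B2m, H2-T23, H2-Q4, Nlrc5, Psmb10 and Psme1 lost the call without any 1 of 3 to 7 of the 8 compared libraries (adjusted p up to 0.121).

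**Figure D3:**
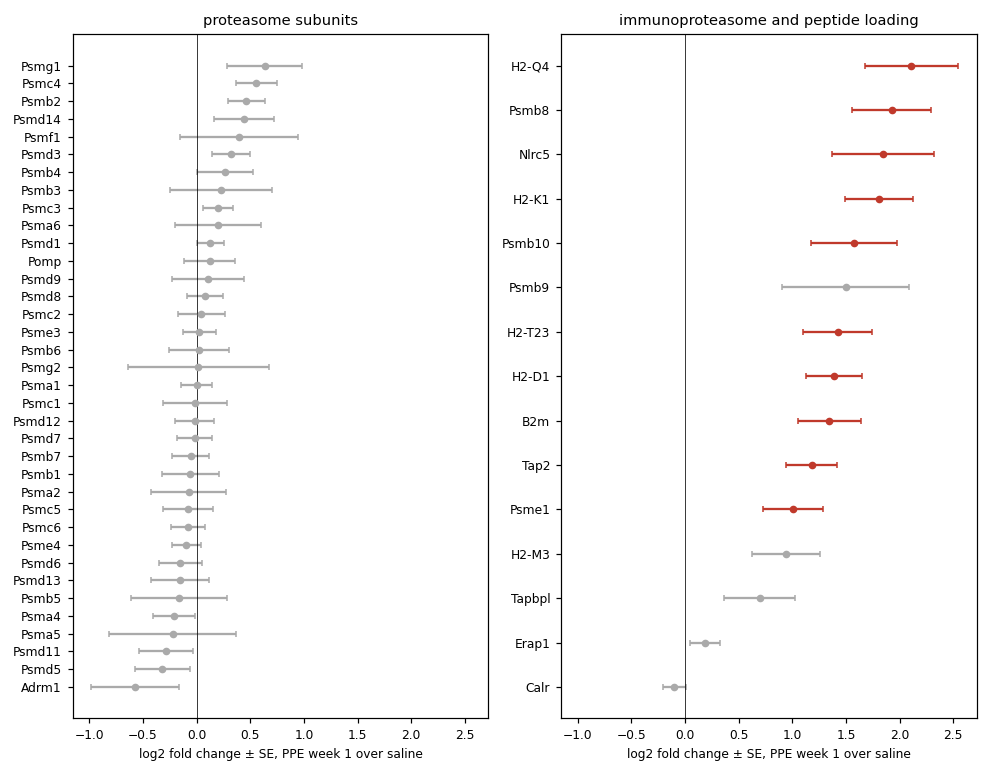
Log2 fold change ± SE of PPE week 1 over saline for the standard proteasome list (left) and the immunoproteasome and peptide loading list (right), on the same axis. The standard subunits lie between -0.57 and 0.63 with none called, and 10 of 15 genes at right (red) were called higher.

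Interferon-stimulated genes, which restrict virus replication and sense foreign RNA, were the list with the most calls. Of 36 tested, 21 rose and none fell, with a median of 1.82 and 29 wholly above saline. DESeq2 called 30 higher, edgeR with the 8 libraries alone 31 and limma-voom 20. Stat2, a subunit of the transcription factor that type I interferon activates (chromosome 10, 128270498 to 128292853), was at 126, 96.6, 83.5 and 90.1 CPM in saline replicates 1 to 4 and 408, 451, 350.0 and 277 CPM at PPE week 1. For Stat2 the log2 fold change was 1.91 ± 0.34 SE (adjusted p = 0.00684). Ifitm3, a membrane protein that blocks virus entry, was at 100.1 to 140.4 CPM in saline and 294 to 468 CPM at PPE week 1. For Ifitm3 the log2 fold change was 1.56 ± 0.28 SE (adjusted p = 0.00684). The groups were separate for both genes. The RNA sensors Ddx58 and Dhx58 rose by 1.30 and 2.41, the oligoadenylate synthetase genes Oas2, Oas3 and Oasl1 by 1.87, 3.35 and 3.48, and Isg15, a ubiquitin-like tag, by 2.23. Irf1 (means 3.44 and 4.71 CPM, 0.45 ± 0.75) and Ifi47 (0.84 ± 0.95) overlapped between the groups (adjusted p = 0.814 and 0.7). The levels of this list varied between animals, since its summed CPM ran from 1122 to 2283 CPM in saline and 4167 to 6911 CPM at PPE week 1. The count of 21 fell to 3 to 13 without any 1 of saline replicates 2, 3 and 4 and PPE week 1 replicates 1, 2, 3 and 4. Oasl1 lost the call without saline replicate 4 (adjusted p up to 0.0562). Isg15 lost the call without either of saline replicate 4 and PPE week 1 replicate 2 (adjusted p up to 0.0604). Oas2, Oas3 and Dhx58 lost the call without any 1 of 6 to 7 of the 8 compared libraries (adjusted p up to 0.108). No member was called with the NR_046233 share as a covariate.

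Promoter windows of 300 bases, 250 before and 50 after each gene's start, were searched on both strands for 7 sequence patterns known from textbooks. The windows come from RefSeq on GRCm38.p6, the assembly behind mm10. The patterns were chosen after the calls were known. Shares of higher, lower and tested genes were 15.9, 9.64 and 11.9% for the kappa B site, 10.1, 6.61 and 6.29% for AP-1 (TGANTCA) and 12.4, 17.9 and 14.3% for TEAD (GGAATG). They were 2.27, 2.48 and 3.28% for CRE (TGACGTCA) and 1.01, 1.38 and 0.636% for the heat shock element (GAA, NN, TTC, NN, GAA). The other 2 patterns are given in full. The interferon-stimulated response element (the letters GAAA, then NN, then GAAA) was in the window of 18 of the 28 tested interferon genes that had a promoter entry and of 10 of the 16 called. It was in 43 of 396 genes called higher (10.9%), 4 of 363 called lower (1.10%), 350 of 9439 tested genes (3.71%) and 1070 of all 26742 genes with a window (4.00%). Of the same 28 interferon genes 9 held AP-1 (32.1%) and 8 the kappa B site (28.6%). TEAD was in 3 of them (10.7%), the heat shock element in 1 and CRE in 0. The windows of Isg15 and of 2 class I pathway genes, B2m and Psme1, are shown because they carry the interferon-stimulated response element. Its letters stand in capitals. Isg15 lies on the minus strand at chr4:156200769-156201068 and B2m on the plus strand at chr2:122147437-122147736. Psme1 lies on the plus strand at chr14:55578244-55578543. Each is read 5′ to 3′ along the gene:
Isg15: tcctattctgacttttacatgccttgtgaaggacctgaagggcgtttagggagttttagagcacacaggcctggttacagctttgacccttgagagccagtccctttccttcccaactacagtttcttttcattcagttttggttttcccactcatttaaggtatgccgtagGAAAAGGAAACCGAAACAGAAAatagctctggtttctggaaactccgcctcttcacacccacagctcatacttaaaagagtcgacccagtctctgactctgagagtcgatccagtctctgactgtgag
B2m: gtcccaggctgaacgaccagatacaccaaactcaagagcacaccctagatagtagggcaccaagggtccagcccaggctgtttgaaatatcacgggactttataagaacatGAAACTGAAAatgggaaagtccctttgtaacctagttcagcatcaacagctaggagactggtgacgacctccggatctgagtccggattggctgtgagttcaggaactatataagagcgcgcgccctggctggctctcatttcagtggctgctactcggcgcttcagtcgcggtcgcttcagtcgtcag
Psme1: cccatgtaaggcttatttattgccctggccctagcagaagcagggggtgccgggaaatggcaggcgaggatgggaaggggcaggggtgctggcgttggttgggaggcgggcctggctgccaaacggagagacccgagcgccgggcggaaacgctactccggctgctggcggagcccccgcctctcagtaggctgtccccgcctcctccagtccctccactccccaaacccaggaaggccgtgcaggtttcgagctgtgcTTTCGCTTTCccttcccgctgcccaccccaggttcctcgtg
In Isg15 the capitals hold overlapping matches that begin 78 bases before the start, in B2m the match begins 139 bases before it, and in Psme1 the match is on the other strand from 9 bases after it. A match describes letters in a window and is no evidence of binding.

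Genes of innate sensing outside these lists also moved, and the families in this paragraph were put together after the calls were seen, from gene names, with every tested member counted. Of 11 subunits, inhibitors and kinases of NF-kappaB, the transcription factor of inflammatory signals, 6 rose and none fell: Map3k14, Rel, Nfkb1, Nfkbid, Rela and Ikbke. Map3k14, the kinase that starts the non-canonical branch, was at 19.4, 21.2, 19.9 and 19.3 CPM in saline replicates 1 to 4 and 59.02, 50.4, 52.7 and 51.99 CPM at PPE week 1 (log2 fold change 1.43 ± 0.30 SE, adjusted p = 0.00887), with the groups well apart. Of 16 Toll-like receptors and adaptors 4 rose and none fell: Myd88 (means 46.3 and 107 CPM, 1.21 ± 0.26), Tlr9 (means 29.9 and 142 CPM, 2.24 ± 0.59), Tlr13 (1.41 ± 0.35) and Irak3 (0.81 ± 0.23). Of 7 Schlafen genes, which restrict translation and cell growth, 5 rose. Slfn4 was at 0, 0, 0 and 0.129 CPM in saline and 18.9, 23.3, 8.16 and 6.49 CPM at PPE week 1, or 1 count against 591 (ratio 458, 95% exact interval 81.9 to 18120, counting error only). In the cell death list 4 of 33 genes rose and 1 fell. The share of lower genes is no more than the 4.02% of all tested genes. Beside Bak1, the pyroptosis pore protein Gsdmd (means 31.8 and 85.6 CPM, 1.43 ± 0.27), the inhibitor Birc3 (1.11 ± 0.22) and Casp4 (1.00 ± 0.28) were higher, and Bcl2l2 was lower (-0.73 ± 0.18). Rel lost the call without PPE week 1 replicate 2 (adjusted p up to 0.058). Nfkb1 lost the call without either of saline replicate 4 and PPE week 1 replicate 2 (adjusted p up to 0.0674). Nfkbid, Rela, Ikbke, Tlr9, Tlr13, Irak3, Slfn2, Slfn3, Slfn5, Slfn9, Casp4 and Bcl2l2 lost the call without any 1 of 3 to 8 of the 8 compared libraries (adjusted p up to 0.174). The NF-kappaB count was 1 to 4 and the Schlafen and Toll-like receptor counts 1 to 3 without any 1 of the 8 libraries, and the cell death count was 7 without PPE week 2 replicate 1. With the NR_046233 share as a covariate no NF-kappaB, Schlafen or Toll-like receptor gene was called. The median log2 fold changes were then 0.97, 1.43 and 0.83, in that order, beside 0.87, 1.63 and 0.80 without the covariate.

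Immune cell genes other than those of macrophages rose in part. Hdc, which makes histamine and is high in neutrophils, mast cells and basophils, was at 4.61, 5.81, 2.61 and 3.11 CPM in saline replicates 1 to 4 and 31.7, 109, 29.3 and 49.2 CPM at PPE week 1. For Hdc the log2 fold change was 3.76 ± 0.68 SE (adjusted p = 0.00706). PPE week 1 replicate 2 held the highest value and the other 3 still exceeded every saline library. Acod1, which makes itaconate in activated myeloid cells, was at 0.298 to 3.83 CPM in saline and 51.04 to 211 CPM at PPE week 1 (log2 fold change 5.69 ± 1.43 SE, adjusted p = 0.0408). The oxidase regulator Rac2 and subunit Cyba rose by 2.05 and 1.33. These were 4 of 19 tested oxidase and granule genes, whose median was 2.48. Of 34 chemokines and cytokines 3 rose, Cxcl10, Ccl3 (means 2.33 and 21.002 CPM) and Ccl5 (means 8.74 and 53.5 CPM). Cxcl10, which draws T cells, was at 19.2, 7.003, 8.75 and 6.99 CPM in saline replicates 1 to 4 and 141, 163, 87.2 and 88.8 CPM at PPE week 1 (log2 fold change 3.50 ± 0.64 SE, adjusted p = 0.00982). Saline replicate 1 was above the other saline libraries for Cxcl10 but far below all PPE libraries. Of 24 tested T and NK cell genes, from a list of 34, 5 rose. The NK receptor gene Ncr1 was at 1.22 to 4.01 CPM in saline and 9.64 to 22.1 CPM at PPE week 1 (log2 fold change 2.73 ± 0.56 SE, adjusted p = 0.00802), and Klrd1 at 0.894 to 4.31 CPM in saline and 14.96 to 16.4 CPM at PPE week 1. The T cell genes Cd3g and Cd6 and the granzyme gene Gzma were the others. Cd6 had no count in any saline library and 87 at PPE week 1, at least 22.5-fold higher against a floor of 3 counts over the group. The summed CPM of the list ran from 149.7 to 182 CPM in saline and 435 to 529 CPM at PPE week 1. Among 10 genes of B and plasma cells edgeR called none, with 2 higher at an unadjusted p under 0.05, and DESeq2 called 1. Cd79a, a subunit of the B cell receptor, was at 0.388 to 2.875 CPM in saline and 2.095 to 6.435 CPM at PPE week 1. Klrd1 lost the call without saline replicate 4 (adjusted p up to 0.0509). Acod1, Rac2, Cyba, Ccl3, Ccl5, Cd3g, Cd6 and Gzma lost the call without any 1 of 5 to 8 of the 8 compared libraries (adjusted p up to 0.153). The counts were 1 to 2 without any 1 of saline replicates 1, 2, 3 and 4 and PPE week 1 replicates 1, 2, 3 and 4 for the oxidase list, and 8 without PPE week 2 replicate 1 and 7 without PPE week 2 replicate 3. They were 1 without any 1 of saline replicate 2 and PPE week 1 replicates 1, 2 and 4 for chemokines and 1 to 3 without any 1 of saline replicates 3 and 4 and PPE week 1 replicates 1, 2, 3 and 4 for T and NK cells. Chemokine calls were 5 without any 1 of PPE week 2 replicates 1, 3 and 4, and T and NK cell calls 11 without PPE week 2 replicate 1. For the oxidase, chemokine and T and NK cell lists, in that order, DESeq2 called 10, 8 and 8 genes higher. EdgeR with the 8 libraries alone called 13, 17 and 16 higher and limma-voom 3, 2 and 4. With the NR_046233 share as a covariate none was called. The PPE libraries lay wholly above saline for 13, 18 and 20 genes, beside 12.4% of all tested genes.

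Complement genes changed in both directions. Properdin, Cfp, which stabilises the alternative pathway convertase, was at 40.05, 38.9, 36.98 and 26.7 CPM in saline replicates 1 to 4 and 84.5, 152, 95.9 and 125 CPM at PPE week 1 (log2 fold change 1.68 ± 0.27 SE, adjusted p = 0.00213), and the C3a receptor C3ar1 rose by 1.59. The terminal component C7 fell by 1.29 on the log2 scale. Of 32 tested genes of complement and coagulation 4 rose and 3 fell (6 higher and 2 lower with library size scaling), with a median of 0.25. Also called were Fgl2 (0.74 ± 0.15) and Serping1 (0.62 ± 0.16), higher, and the protease inhibitor Serpine2, lower (-1.47 ± 0.31). Of 18 antigen presentation and dendritic cell genes 3 rose, the actin bundler Fscn1 (means 49.99 and 119 CPM, 1.25 ± 0.26), Bst2, an interferon-induced tether of virus particles (1.85 ± 0.38), and the class II loading gene H2-DMa (1.37 ± 0.35). Their median was 1.35, and 12 lay wholly above saline. DESeq2 called 8 of them higher, edgeR with the 8 libraries alone 12, limma-voom 3 and edgeR with the NR_046233 share as a covariate 0. Serpine2 lost the call without either of PPE week 1 replicates 1 and 2 (adjusted p up to 0.0661). Bst2 lost the call without saline replicate 4 (adjusted p up to 0.0527). C3ar1, C7, Serping1 and H2-DMa lost the call without any 1 of 7 to 8 of the 8 compared libraries (adjusted p up to 0.15). The 3 lower complement genes became 1 without any 1 of PPE week 1 replicates 1 and 2, and the 3 antigen presentation genes 1 without saline replicate 4, 6 without PPE week 2 replicate 1 and 5 without its replicate 3.

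Actin genes of motile cells rose in part. Of 47 tested genes of the non-muscle actin and leukocyte cytoskeleton 12 rose and 1 fell, with a median of 0.43 and 27 wholly above saline. Arpc3 was at 119, 127, 128 and 127 CPM in saline replicates 1 to 4 and 226, 271, 281 and 195 CPM at PPE week 1. For Arpc3 the log2 fold change was 0.96 ± 0.15 SE (adjusted p = 0.00207). The saline libraries differed by less than 10 CPM and the lowest PPE library was 195 CPM. Coro1b, which frees Arp2/3 branches, was at 74.03 to 121 CPM in saline and 177 to 212 CPM at PPE week 1. For Coro1b the log2 fold change was 1.06 ± 0.20 SE (adjusted p = 0.00406). Actb, cytoplasmic actin, went from 3433 to 5178 CPM (0.59 ± 0.13), Pfn1, profilin, from 205 to 365 CPM (0.83 ± 0.17), and Myh9, the non-muscle myosin IIA heavy chain, from 1897 to 2977 CPM (0.65 ± 0.14). Myh10, the heavy chain of the related myosin IIB, fell from 770.3 to 339 CPM (-1.19 ± 0.23). The 12 became 5 to 7 without any 1 of saline replicates 1 and 3 and PPE week 1 replicates 1, 2 and 4, and 19 without PPE week 2 replicate 1. In a family assembled after the calls were seen, 7 of 14 genes of Rock kinases and myosin phosphatase fell and none rose, with the kinases that keep myosin phosphorylated among them. These were Rock1 (means 409 and 216 CPM, -0.92 ± 0.13) and Rock2 (means 449 and 289 CPM, -0.64 ± 0.12).

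Genes that tie cells to their matrix fell in part. Of 37 tested integrin and focal adhesion genes 11 fell and 2 rose (median -0.34), or 4 higher and 6 lower with library size scaling. Dmd, dystrophin, which links the cytoskeleton through the membrane to laminin (chromosome X, 82814664 to 85205050), was at 476, 479, 440.4 and 672 CPM in saline replicates 1 to 4 and 44.1, 47.2, 84.03 and 123 CPM at PPE week 1. For Dmd the log2 fold change was -2.79 ± 0.36 SE (adjusted p = 0.00202). Saline replicate 4 was highest, and the highest PPE library was far below the lowest saline library. Its partners Sgca (-2.56 ± 0.54) and Sgcd (-1.58 ± 0.35), the laminin-binding integrin Itga7 (-1.02 ± 0.22), the adaptor genes Lims2 (-1.53 ± 0.28) and Fermt2 (-0.98 ± 0.19) and the caveola coat gene Cavin1 (-1.02 ± 0.17) fell too. The leukocyte integrins Itgb2 (means 128 and 347 CPM, 1.44 ± 0.32) and Itgb7 (1.81 ± 0.51) rose. The smooth muscle serum response element, known as the CArG box and searched by that name on both strands, was in the windows of 15 of 363 genes called lower (4.13%), 8 of 396 called higher (2.02%) and 148 of 9439 tested (1.57%). The windows of Fermt2 (minus strand, chr14:45530016-45530315) and Lama2, a laminin chain described next (minus strand, chr10:27616893-27617192), are shown as lower genes that hold it. It stands in capitals, 5′ to 3′ along the gene:
Fermt2: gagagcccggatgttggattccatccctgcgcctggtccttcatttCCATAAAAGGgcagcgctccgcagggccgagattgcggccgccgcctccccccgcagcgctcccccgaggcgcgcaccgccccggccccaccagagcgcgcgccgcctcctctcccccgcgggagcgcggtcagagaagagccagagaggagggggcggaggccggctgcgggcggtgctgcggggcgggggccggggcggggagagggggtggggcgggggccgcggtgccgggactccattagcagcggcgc
Lama2: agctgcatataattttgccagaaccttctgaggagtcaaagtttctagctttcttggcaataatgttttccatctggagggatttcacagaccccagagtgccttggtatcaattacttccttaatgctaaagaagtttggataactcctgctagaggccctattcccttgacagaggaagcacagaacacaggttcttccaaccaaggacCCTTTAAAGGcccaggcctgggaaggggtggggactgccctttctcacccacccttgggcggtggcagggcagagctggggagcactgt
The match begins 204 bases before the start in Fermt2 and 39 before it in Lama2. The 11 lower genes became 7 without any 1 of saline replicates 3 and 4 and 6 without PPE week 1 replicate 2. Sgcd lost the call without PPE week 1 replicate 2 (adjusted p up to 0.0555). Itgb2 and Itgb7 lost the call without any 1 of 4 to 8 of the 8 compared libraries (adjusted p up to 0.136).

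Genes of the basement membrane, the laminin and type IV collagen sheet around each muscle cell, changed in both directions. Of 24 tested genes 8 fell and 3 rose, with a median of -0.16 (0.14 with library size scaling, which called 5 higher and 5 lower). Col4a6, a chain of the smooth muscle form of type IV collagen, was at 174, 202, 186 and 217 CPM in saline replicates 1 to 4 and 54.1, 23.3, 44.7 and 36.4 CPM at PPE week 1 (log2 fold change -2.29 ± 0.33 SE, adjusted p = 0.00213). Every PPE library was below every saline library. Col4a3 and Col4a4, chains of the form best known from kidney and lung, fell, with log2 fold changes of -2.37 and -2.13. The laminin chain genes Lama2, Lama3, Lamb2 and Lamc3 fell (-1.19, -1.25, -0.69 and -2.40), and so did the matricellular gene Smoc2 (-0.79). Lama1, the laminin alpha chain of embryonic basement membrane, rose. It was at 0.174, 0, 0 and 0 CPM in saline and 6.79, 13.2, 7.18 and 7.38 CPM at PPE week 1. That is 2 counts against 363 (ratio 141, 95% exact interval 38.7 to 1166, counting error only; edgeR adjusted p = 0.00493). It was listed at 0 in 3 saline libraries and present in all 4 PPE libraries. Agrn, the proteoglycan agrin, and Nid2, a nidogen that bridges laminin and collagen, rose by 0.56 and 0.69. The 8 lower genes became 3 to 5 without any 1 of saline replicates 2 and 4 and PPE week 1 replicates 1, 2 and 3. Lama2 lost the call without either of PPE week 1 replicates 1 and 2 (adjusted p up to 0.0622). Col4a3, Lama3, Lamb2 and Lamc3 lost the call without any 1 of 4 to 7 of the 8 compared libraries (adjusted p up to 0.115).

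Fibrous matrix genes changed in few members, and for collagens the count depended on the setting. Of 37 collagen genes and maturation enzymes only Plod3, a lysyl hydroxylase, rose in edgeR (means 108 and 185 CPM, log2 fold change 0.77 ± 0.16 SE, adjusted p = 0.00855). Only Col14a1, a fibril-associated collagen, fell (means 2204 and 1403 CPM, log2 fold change -0.65 ± 0.12 SE, adjusted p = 0.00391), and DESeq2 called 2 higher and 1 lower. Collagen calls were 10 higher and 0 lower with library size scaling and 7 higher and 3 lower in edgeR with the 8 libraries alone, and the 1 higher became 5 without PPE week 2 replicate 1 and 3 without PPE week 2 replicate 3 and 2 without either of saline replicate 3 and PPE week 1 replicate 3. Of 19 elastic fibre genes Emilin2 (means 50.8 and 141 CPM, log2 fold change 1.48 ± 0.29 SE, adjusted p = 0.00886) and Efemp1 (1.08 ± 0.27) rose and Ltbp3 fell (-0.48 ± 0.13). Of 23 leucine-rich proteoglycan and hyaluronan genes 5 fell. They were Ogn at 266 to 319 CPM in saline and 88.1 to 145 CPM at PPE week 1 (log2 fold change -1.43 ± 0.23 SE, adjusted p = 0.00328), Dcn, Lum, Ecm2 and the hyaluronidase gene Hyal1. Of 35 matrix proteases and inhibitors 6 fell and none rose. Those with the smallest p were Htra1, a secreted serine protease (means 405 and 140.3 CPM, log2 fold change -1.53 ± 0.25 SE, adjusted p = 0.00348), and the metalloprotease Adamts1 (means 155 and 74.7 CPM, log2 fold change -1.05 ± 0.19 SE, adjusted p = 0.00388). Adamts8 and Mmp16 also fell, as did the inhibitors Timp2 (-0.65 ± 0.13) and Reck (-1.20 ± 0.26). Library size scaling gave 4 higher and 0 lower for elastic fibre genes, 1 higher and 1 lower for proteoglycans and 1 higher and 3 lower for proteases. It turned the medians of the elastic fibre and protease lists from -0.11 and -0.16 to 0.18 and 0.13. Efemp1, Ltbp3, Dcn, Lum, Ecm2, Hyal1, Adamts8 and Mmp16 lost the call without any 1 of 3 to 7 of the 8 compared libraries (adjusted p up to 0.173). The 5 proteoglycan genes became 1 to 3 without any 1 of saline replicates 2, 3 and 4 and PPE week 1 replicates 1, 2 and 4.

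Most calls among genes of growth factor pathways were lower, and the balance of calls depended on the scaling. Only 1 or 2 genes of each list were called higher, which is near or below the share of all tested genes. The 2 lower genes of FGF to VEGF signalling are also near that share. Those shares were 4.12% higher and 4.02% lower. Among ligands, Wnt16, a secreted Wnt of connective tissue, was at 13.1, 29.5, 21.4 and 45.3 CPM in saline replicates 1 to 4 and 4.77, 4.76, 4.12 and 8.48 CPM at PPE week 1 (log2 fold change -2.30 ± 0.37 SE, adjusted p = 0.00214). Gdf10, a TGF-beta family member, was at 207 to 291 CPM in saline and 84.4 to 134 CPM at PPE week 1 (log2 fold change -1.08 ± 0.19 SE, adjusted p = 0.00396). The netrin gene Ntn1, a guidance cue, was at 113 to 139 CPM in saline and 43.1 to 54.98 CPM at PPE week 1. For Ntn1 the log2 fold change was -1.30 ± 0.19 SE (adjusted p = 0.00144). The groups did not overlap for any of these 3. Fgf1 (-1.32 ± 0.35) and the Notch ligand Jag1 (-0.54 ± 0.15) fell. Among receptors, Bmpr1a (means 219 and 104 CPM, log2 fold change -1.07 ± 0.17 SE, adjusted p = 0.0022), the Wnt co-receptor Lrp6 (means 511 and 293 CPM, -0.80 ± 0.14), Fzd4, Fzd8, Lgr6 and Igf2r (-0.38 ± 0.10) fell. Notch1 (means 86.997 and 134 CPM, 0.62 ± 0.13) and the Wnt5a receptor gene Ror2 (1.45 ± 0.37) rose. Among secreted modulators, Dkk3 (means 199.7 and 82.3 CPM, log2 fold change -1.28 ± 0.19 SE, adjusted p = 0.00144), the sclerostin gene Sost, a Wnt inhibitor of bone (means 97.2 and 17.6 CPM), and Sfrp2 fell. Among target genes, Ccn2, which TGF-beta and YAP raise (means 1049 and 329 CPM, -1.67 ± 0.28), Ccn3 (-1.25 ± 0.24), Pmepa1 and the Notch target Heyl (means 97.2 and 38.9 CPM) fell and Tgfbi (1.19 ± 0.25) and Lfng rose. The transcription factor genes Klf4 (-0.91 ± 0.22) and Foxc1 (-1.18 ± 0.27) fell. By list, 8 of 40 Wnt genes fell and 1 rose (median -0.46), and 5 of 42 TGF-beta and BMP genes fell and 1 rose (-0.23, but 0.04 with library size scaling). Of 45 Notch, Hippo and smooth muscle regulators 5 fell and 2 rose (-0.41). Of 38 genes of FGF, PDGF, IGF and VEGF signalling 2 fell and Igfbp3 rose by 0.91. With library size scaling the calls were 3 higher and 3 lower for Wnt, 1 higher and 4 lower for TGF-beta and BMP, 4 higher and 0 lower for Notch and Hippo and 3 higher and 0 lower for FGF to VEGF. Notch1 and Foxc1 each lost the call without PPE week 1 replicate 2 (adjusted p up to 0.0555). Tgfbi lost the call without either of saline replicate 4 and PPE week 1 replicate 2 (adjusted p up to 0.0517). Fgf1, Jag1, Fzd4, Fzd8, Lgr6, Igf2r, Ror2, Sost, Sfrp2, Pmepa1, Heyl, Lfng, Klf4 and Igfbp3 lost the call without any 1 of 3 to 8 of the 8 compared libraries (adjusted p up to 0.139). The 8 lower Wnt genes became 3 to 4 without any 1 of saline replicates 1, 2, 3 and 4 and PPE week 1 replicates 1, 2 and 4. The 5 lower Notch and Hippo genes became 1 to 3 without any 1 of saline replicates 1, 3 and 4 and PPE week 1 replicates 1, 2, 3 and 4, and 8 without PPE week 2 replicate 3. The 2 lower genes of FGF to VEGF signalling became 0 to 1 without any 1 of saline replicates 2, 3 and 4 and PPE week 1 replicates 1, 2, 3 and 4, and 5 without PPE week 2 replicate 1 and 4 without PPE week 2 replicate 3.

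Of 37 tested genes of axon guidance and sympathetic nerve 7 fell and 1 rose, Plxnd1 (0.40 ± 0.11), although the median was 0.34. With library size scaling 5 higher and 4 lower were called. Beside Sema3c and Ntn1 the lower genes were Efnb2 (means 109.6 and 51.9 CPM, -1.08 ± 0.20), an ephrin of arterial cells, and Sema5a, Sema3d, Plxna2 and Plxna4. Of 17 tested Schwann cell genes Mag rose, with 6 counts in saline and 150 at PPE week 1. Sox10 overlapped, at 1.94 to 11.8 CPM in saline and 3.67 to 11.7 CPM at PPE week 1. Pericyte and mural genes fell in 5 of 15 cases. Rgs5 was at 3212 to 4396 CPM in saline and 502 to 1009 CPM at PPE week 1 (log2 fold change -2.26 ± 0.30 SE, adjusted p = 0.00211). The others were Gucy1a1, a nitric oxide receptor subunit (means 164 and 74.9 CPM, -1.13 ± 0.22), Heyl, Mcam and Kcnj8. Of 19 adventitial fibroblast genes 5 fell: Fmo2, Ogn, Col14a1, Dpt (means 508 and 229 CPM, -1.15 ± 0.20) and Pi16. The defining fibroblast gene Pdgfra was at 4.44 to 11.9 CPM in saline and 7.11 to 10.7 CPM at PPE week 1. Among 23 endothelial genes edgeR called none and DESeq2 2 higher. Unadjusted, 3 higher and 1 lower had a p under 0.05. Vwf was at 259 to 390.1 CPM in saline and 169.9 to 271 CPM at PPE week 1 (-0.49 ± 0.20, adjusted p = 0.169) and Cdh5 at 207 to 241 CPM against 247 to 281 CPM. Sema5a lost the call without either of saline replicate 4 and PPE week 1 replicate 1 (adjusted p up to 0.0575). Plxnd1, Sema3d, Plxna2, Plxna4, Mag, Heyl, Mcam, Kcnj8 and Pi16 lost the call without any 1 of 4 to 7 of the 8 compared libraries (adjusted p up to 0.143). The 5 pericyte genes became 2 to 3 without any 1 of saline replicates 3 and 4 and PPE week 1 replicates 1, 2 and 3, and the 5 fibroblast genes 9 without PPE week 2 replicate 1. The 7 guidance genes became 3 to 4 without any 1 of saline replicates 2, 3 and 4 and PPE week 1 replicates 1 and 2.

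Genes of iron, lipid and redox handling rose in part. Beside Ftl1, Hmox1, which breaks down heme (means 43.7 and 99.4 CPM, 1.18 ± 0.28), Slc11a1 and Lrp1 rose among 21 iron and heme genes, with none lower. Slc11a1, a metal transporter of phagosomes, was at 21.1 to 39.04 CPM in saline and 65.6 to 109.8 CPM at PPE week 1 (log2 fold change 1.55 ± 0.31 SE, adjusted p = 0.00752). Of 15 lipid efflux and foam cell genes 4 rose. The lipid transfer protein gene Pltp was at 96.5, 124, 89.1 and 66.5 CPM in saline replicates 1 to 4 and 279, 248, 208 and 229.8 CPM at PPE week 1 (log2 fold change 1.36 ± 0.24 SE, adjusted p = 0.00388). The others were the lysosomal cholesterol carrier Npc2 (means 183 and 344 CPM, 0.91 ± 0.17), Abcg1 and Msr1. For Pltp every PPE library exceeded every saline library. Of 43 lysosome genes 6 rose and 2 fell, and the share of lower genes is near the 4.02% of all tested genes. Grn, progranulin, was at 379 to 401 CPM in saline and 692 to 880.1 CPM at PPE week 1 (log2 fold change 1.03 ± 0.20 SE, adjusted p = 0.00706). Gm2a, Man2b1, Ctsb, Ctsz and Neu1 also rose. Atp6v0d2, a proton pump subunit (means 50.04 and 18.8 CPM, -1.41 ± 0.30), and Ctsl fell. Of 31 redox genes Prdx5, at 60.5 to 81.4 CPM in saline and 132 to 172 CPM at PPE week 1, the cystine importer Slc7a11 (means 11.7 and 56.6 CPM), Gsr and Gpx1 rose. The glutathione transferase Gstm1 (means 34.6 and 13.3 CPM, -1.38 ± 0.28) and Gpx8 (-0.86 ± 0.18) fell. Genes of enzymes that oxidise or reduce aldehydes, alcohols and drugs fell in 6 of 16 cases and rose in none. This family was assembled after the calls were seen, and its lower genes included Fmo2, Cbr2 (means 51.1 and 19.3 CPM), Aox1, Aldh1a1 and Adh1. Msr1 lost the call without either of saline replicate 4 and PPE week 1 replicate 2 (adjusted p up to 0.0593). Ctsb lost the call without PPE week 1 replicate 2 (adjusted p up to 0.0576). Hmox1, Lrp1, Abcg1, Ctsz, Neu1, Ctsl, Slc7a11, Gsr, Gpx1, Aldh1a1 and Adh1 lost the call without any 1 of 3 to 8 of the 8 compared libraries (adjusted p up to 0.127). The counts were 2 without any 1 of saline replicate 4 and PPE week 1 replicates 1 and 2 for iron and 2 without any 1 of saline replicate 4 and PPE week 1 replicate 2 for lipid efflux. They were 3 without PPE week 1 replicate 2 for the lysosome and 1 to 2 without any 1 of saline replicates 1, 2, 3 and 4 and PPE week 1 replicates 2 and 4 for higher redox genes.

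Genes of energy metabolism were mostly not called. Of 66 nuclear genes of the respiratory chain none was called in edgeR or DESeq2, with 2 lower at an unadjusted p under 0.05, and the median was -0.16 (0.10 with library size scaling). With the 8 libraries alone edgeR called 5 of them lower, and it called 5 citric acid cycle, 6 fatty acid oxidation and 4 adipocyte genes lower. Atp5a1, an ATP synthase subunit, was at 510.1, 399, 335 and 519 CPM in saline replicates 1 to 4 and 374, 386, 421 and 399.8 CPM at PPE week 1 (-0.16 ± 0.22, adjusted p = 0.768). Saline replicates 1 and 4 were above and replicate 3 below all PPE libraries. Library size scaling turned its log2 fold change to 0.10. Of 25 citric acid cycle genes none was called in edgeR, 5 were lower at an unadjusted p under 0.05 and DESeq2 called 2 lower. The count of 0 became 2 without PPE week 2 replicate 1 and 4 without PPE week 2 replicate 2. Sdha, of succinate dehydrogenase, was at 190.4 to 339 CPM in saline and 182 to 212 CPM at PPE week 1 (-0.47 ± 0.29, adjusted p = 0.391). Of 19 genes that oxidise fatty acids none was called by either tool with all libraries, and 1 was lower without PPE week 2 replicate 1. Their median was -0.55, and 3 were lower at an unadjusted p under 0.05. Fabp4, the fatty acid carrier of fat and endothelium, was wholly lower, at 1388, 584, 520.1 and 822 CPM in saline replicates 1 to 4 and 331, 341, 428 and 216 CPM at PPE week 1, but did not pass the test (-1.33 ± 0.67, adjusted p = 0.298). The called genes among 25 of glycolysis and hypoxia were Slc2a1, which rose, and Car9, which fell. With 1 gene in each direction, these shares are near the 4.12% higher and 4.02% lower of all tested genes. Slc2a1, the glucose transporter, was at 22.5 to 27.8 CPM in saline and 40.6 to 89.02 CPM at PPE week 1 (log2 fold change 1.32 ± 0.23 SE, adjusted p = 0.00328). Car9 is a carbonic anhydrase induced by hypoxia (means 11.2 and 2.91 CPM, log2 fold change -1.94 ± 0.52 SE, adjusted p = 0.0315). Of 25 sterol and fatty acid synthesis genes the regulator Srebf2 rose (means 63.9 and 99.4 CPM, log2 fold change 0.64 ± 0.16 SE, adjusted p = 0.0247) in edgeR and none fell. The summed level of the list ran the other way, from 6279 to 12298 CPM in saline and 2803 to 4543 CPM at PPE week 1 without overlap, and 6 genes lay wholly below. DESeq2 called 1 higher and 1 lower, edgeR with the 8 libraries alone 1 higher and 5 lower, and edgeR 5 lower without PPE week 2 replicate 2. Of 23 glycogen metabolism genes, a family assembled after the calls were seen, 5 fell and none rose, among them Stbd1, Ppp1r3c (means 19.9 and 5.35 CPM, -1.89 ± 0.43), Pygm and Ppp1r3a. Genes of fat cells were uneven between saline animals, whose summed CPM over 16 tested adipocyte genes ran from 1909 to 5737 CPM in saline and 1089 to 1994 CPM at PPE week 1. Adipoq was at 93.8 to 377 CPM in saline and 62.4 to 125 CPM at PPE week 1. None of the list was called in edgeR or DESeq2, with 1 lower by unadjusted p, and 1 was lower without PPE week 2 replicate 2. Their part in the metabolic values was not tested. Ppp1r3c lost the call without saline replicate 4 (adjusted p up to 0.054). Car9, Srebf2, Pygm and Ppp1r3a lost the call without any 1 of 5 to 8 of the 8 compared libraries (adjusted p up to 0.152). The glycogen count was 1 to 4 without any 1 of the 8 libraries.

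Translation genes were called in few cases. Of 70 ribosomal protein genes 7 rose and none fell, and the median was 0.05. Rpl29 was at 62.4, 77.5, 58.3 and 56.04 CPM in saline replicates 1 to 4 and 111, 118, 113 and 109.7 CPM at PPE week 1 (log2 fold change 0.83 ± 0.14 SE, adjusted p = 0.00317), with a gap between the groups. Rpl8 was at 96.03 to 102 CPM in saline and 150.5 to 187 CPM at PPE week 1 (log2 fold change 0.75 ± 0.13 SE, adjusted p = 0.00378). Rpl3, Rps9, Rpl41 and Rpsa also rose, by 0.48 to 0.89. Many ribosomal protein genes have processed copies in the genome, so that their reads may be shared. None of 29 ribosome assembly genes and none of 36 translation factors was called in edgeR. DESeq2 called 0 and 1. Without adjustment 4 and 5 were higher, with p under 0.05, and none lower. Ncl, nucleolin, was at 373 ± 48.8 CPM in saline and 344 ± 25.1 CPM at PPE week 1 (-0.12 ± 0.13). The elongation factor gene Eef1a1 was at 1948 ± 212 CPM in saline and 1909 ± 79.98 CPM at PPE week 1 (-0.03 ± 0.10). Neither direction held with library size scaling or with the NR_046233 share as a covariate, at 0.16 and 0.02 for Ncl and 0.26 and 0.05 for Eef1a1. Of 16 cytosolic transfer RNA synthetases Vars rose (means 42.6 and 73.5 CPM, log2 fold change 0.79 ± 0.18 SE, adjusted p = 0.016). Heat shock genes fell in part: of 31 chaperone genes 5 fell and none rose. Hspa1a was at 16.98, 43.4, 44.6 and 46.2 CPM in saline replicates 1 to 4 and 6.24, 6.52, 6.58 and 9.28 CPM at PPE week 1 (log2 fold change -2.40 ± 0.46 SE, adjusted p = 0.00684). The others were Hsph1, Hspa1b, a near-identical copy of Hspa1a, and the HSP90 genes Hsp90aa1 (means 216 and 129.8 CPM, -0.74 ± 0.15) and Hsp90ab1 (means 871 and 626 CPM, -0.48 ± 0.12). Even saline replicate 1, the lowest for Hspa1a, was above all PPE libraries. Of 25 endoplasmic reticulum genes Dnajc3 (means 237 and 167 CPM, -0.51 ± 0.12) and Sec23a (means 174 and 118 CPM, -0.56 ± 0.16) fell. Vars lost the call without PPE week 1 replicate 2 (adjusted p up to 0.0669). Rps9, Rpl41, Rpsa, Hsp90ab1, Dnajc3 and Sec23a lost the call without any 1 of 3 to 7 of the 8 compared libraries (adjusted p up to 0.136). The 7 ribosomal protein genes became 3 without any 1 of saline replicate 1 and PPE week 1 replicate 2 and 4 without saline replicate 4.

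Replication-dependent histone genes, whose RNAs end in a stem-loop in place of a poly(A) tail and accumulate in S phase, stood out after the calls were seen. Of 50 tested, 19 rose and none fell, 48 had a log2 fold change above 0, and for 44 the PPE libraries lay wholly above the saline libraries. With the NR_046233 share as a covariate edgeR called none of the 50. The median was 1.38, and 1.43 under that covariate. H2bc8 was at 10.4, 8.94, 16.5 and 18.1 CPM in saline replicates 1 to 4 and 51.2, 52.4, 41.4 and 38.4 CPM at PPE week 1 (log2 fold change 1.76 ± 0.31 SE, adjusted p = 0.00337). H2ac13 was at 4.57 to 7.15 CPM in saline and 16.6 to 21.6 CPM at PPE week 1 (log2 fold change 1.66 ± 0.34 SE, adjusted p = 0.00804), and H2bc7 at 4.53 to 9.15 CPM in saline and 15.96 to 27.7 CPM at PPE week 1. For H2bc7 the log2 fold change was 1.76 ± 0.38 SE (adjusted p = 0.0104). The linker histone genes H1f2 and H1f3 rose by 0.98 and 1.53. The exceptions in direction were H2bc21 (means 7.09 and 5.95 CPM, -0.25 ± 0.59) and H2bc4 (means 23.4 and 14.4 CPM, -0.70 ± 0.31). These genes are near-identical copies in clusters and single counts are uncertain, and 3 to 11 were called without any 1 of the 8 libraries, the fewest without PPE week 1 replicate 2. DESeq2 called 29 higher and edgeR with the 8 libraries alone 37. Of 37 cell cycle and replication genes Pole, a replicative polymerase (means 12.1 and 33.3 CPM, log2 fold change 1.47 ± 0.34 SE, adjusted p = 0.0155), rose and the cyclin gene Ccnd2 (means 433 and 265 CPM, -0.71 ± 0.17) fell. The median was 0.50, with 14 wholly above. The 1 call in each direction is no more than the 4.12% higher and 4.02% lower of all tested genes. DESeq2 called 4 higher and 1 lower and edgeR with the 8 libraries alone 11 higher and 1 lower. The 1 higher gene became 6 without PPE week 2 replicate 1, 2 without PPE week 2 replicate 2 and 3 without any 1 of PPE week 2 replicates 3 and 4. Ccnd2 lost the call without any 1 of saline replicates 3 and 4 and PPE week 1 replicates 1 and 2 (adjusted p up to 0.0748). Other RNAs without a poly(A) tail that rose were Rpph1, Rmrp, the RNA of the related ribonuclease MRP (means 180.2 and 308 CPM, 0.77 ± 0.21), and the small nucleolar RNA Snord17, the only 1 of 25 tested. Snord17 lost the call without PPE week 1 replicate 1 (adjusted p up to 0.0627). Rmrp lost the call without any 1 of saline replicates 1, 3 and 4 and PPE week 1 replicates 1 and 2 (adjusted p up to 0.103).

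**Figure D4:**
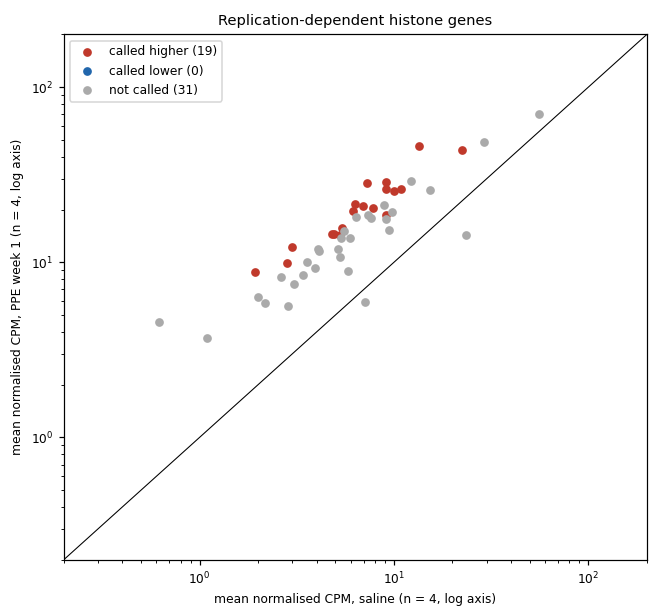
Mean normalised CPM of 50 replication-dependent histone genes in saline (x) and at PPE week 1 (y), n = 4 each, both axes logarithmic with the line of equality. Red points are the 19 genes called higher, and 48 of the 50 points lie above the line by their fitted fold change.

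Of 560 tested long noncoding RNAs 19 were called lower and 5 higher, beside 4.02% and 4.12% of all tested genes. The lower calls are thus no more frequent than among all genes. Malat1 was at 25223, 24686, 28617 and 26070 CPM in saline replicates 1 to 4 and 17748, 15711, 16544 and 17736 CPM at PPE week 1 (log2 fold change -0.63 ± 0.09 SE, adjusted p = 0.00125). Kcnq1ot1, the imprinted RNA that silences its neighbours, was at 404, 412, 405 and 398 CPM in saline replicates 1 to 4 and 269.6, 216, 289.6 and 233 CPM at PPE week 1. For Kcnq1ot1 the log2 fold change was -0.68 ± 0.12 SE (adjusted p = 0.00328). Kcnq1ot1 lies within Kcnq1 on the other strand, and an unstranded kit cannot separate them. Where the named genes Bak1, Prdx5, Stat2, Cxcl10, Ccl3, Pltp, Plod3, Ogn, Car9 and Igf2r overlap Ggnbp1, Trmt112, Apof, Art3, Ccl4, Ctsa, Znhit1, Cenpp, Tpm2 and Airn, in that order, reads likewise cannot be told apart. Of 16 imprinted genes 6 fell and none rose (median -0.49), or 0 higher and 1 lower with library size scaling: Kcnq1ot1, Zim1, Peg3 (means 113 and 49.7 CPM, -1.18 ± 0.29), Igf2r, Dcn and Rian. Hormone receptor genes, a family assembled after the calls were seen, fell in 6 of 10 cases and rose in none. Among them were Pgr (means 7.66 and 0.885 CPM, -3.08 ± 0.76), Nr3c1 (means 217 and 163 CPM, -0.41 ± 0.11), Prlr, Tshr and Thrb. Of 37 splicing genes only Rbpms, a smooth muscle splicing regulator, was called, at 19.4 to 43.4 CPM in saline and 7.85 to 11.9 CPM at PPE week 1. For Rbpms the log2 fold change was -1.80 ± 0.33 SE (adjusted p = 0.00391). Of 17 clock genes Npas2 fell (means 48.5 and 19.04 CPM, -1.35 ± 0.31). Immediate early genes rose in 5 of 24 cases, Zfp36, Fos, Junb, Ier5 and Dusp5, and Klf4 fell. Library size scaling gave 8 higher and 0 lower. Zfp36, which destabilises cytokine messages, was at 34.3 to 51.4 CPM in saline and 78.3 to 136 CPM at PPE week 1 (log2 fold change 1.27 ± 0.21 SE, adjusted p = 0.00269). Fos was at 17.1, 30.99, 31.4 and 15.5 CPM in saline replicates 1 to 4 and 63.7, 105, 49.01 and 61.4 CPM at PPE week 1 (log2 fold change 1.56 ± 0.29 SE, adjusted p = 0.00407). Npas2 and Junb each lost the call without either of saline replicate 4 and PPE week 1 replicate 2 (adjusted p up to 0.0651). Zim1, Peg3, Igf2r, Dcn, Rian, Pgr, Nr3c1, Prlr, Tshr, Thrb, Ier5, Dusp5 and Klf4 lost the call without any 1 of 3 to 8 of the 8 compared libraries (adjusted p up to 0.199). The 5 immediate early genes became 2 to 3 without any 1 of saline replicates 2 and 4 and PPE week 1 replicates 1, 2 and 4, and the 6 imprinted genes 1 to 3 without any 1 of saline replicates 3 and 4 and PPE week 1 replicates 1, 2 and 4. The hormone receptor count was 0 to 4 without any 1 of the 8 libraries, 0 without PPE week 1 replicate 2.

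Genes called lower had a longer median span than those called higher. Among 11390 tested protein-coding genes, the median genomic span was 57993 bases for 471 lower genes, 17419 bases for 491 higher genes and 23206 bases for the rest. When these genes were put into 5 equal groups by span, 2.06% of the shortest and 9.61% of the longest were called lower, and 5.75% and 3.16% called higher. The median log2 fold change was 0.13 in the shortest group and -0.11 in the longest, or 0.41 and 0.18 with library size scaling. With that scaling 21 of the shortest and 86 of the longest group were called lower and 242 and 157 higher. Long genes took 29.2 to 32.2% of the normalised protein-coding counts in saline and 25.1 to 26.4% at PPE week 1, without overlap, and the shortest 11.4 to 12.3% and 13.9 to 15.3%. Leaving the contractile, channel and macrophage lists out left 208 of the 219 lower calls of the longest group. The median level over the libraries was 69.4 CPM for lower, 55.9 CPM for higher and 13.4 CPM for uncalled genes. Span was examined after the calls were seen and no test was made.

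**Figure D5:**
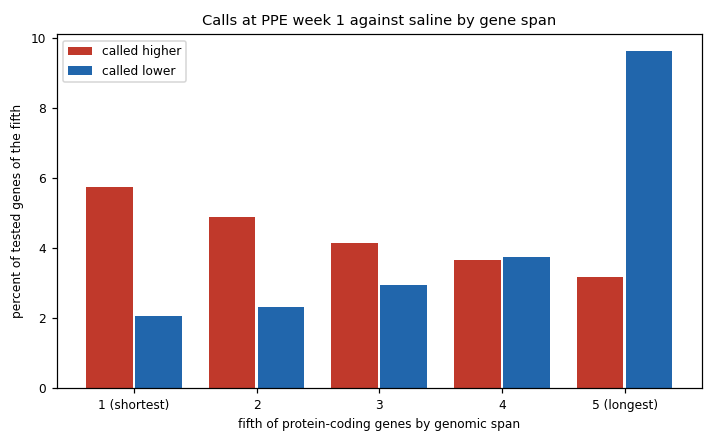
Percent of tested protein-coding genes called higher (red) and lower (blue) at PPE week 1, in 5 groups of 2278 genes ordered by genomic span from shortest to longest, bars from 0. Lower calls go from 2.06% in the shortest group to 9.61% in the longest, and higher calls from 5.75% to 3.16%.

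The levels at day 14 stand beside those of day 7 as a description, since the PPE week 2 comparison shares its libraries with the one above; between the PPE weeks 837 genes were called (6.82%). Cytl1 was at 36.2 ± 14.9 CPM at PPE week 2 (mean ± SD, n = 4), against 61.8 ± 13.5 CPM in saline and 7.51 ± 2.18 CPM at PPE week 1, and rose between the weeks (2.26 ± 0.30, adjusted p = 0.00104). Fmo2 was at 251 ± 77.6 CPM (1.78 ± 0.24, adjusted p = 0.00109) and Wnt16 at 27.9 ± 7.105 CPM (2.33 ± 0.37, adjusted p = 0.002). Each of these 3 was higher at the later week. Bak1 (52.6 ± 5.97 CPM, -0.81 ± 0.15, adjusted p = 0.00534), Ftl1 (443 ± 68.2 CPM, -0.59 ± 0.13, adjusted p = 0.0147) and Stat2 (154 ± 81.02 CPM, -1.27 ± 0.33, adjusted p = 0.0411) fell from week 1 to week 2. Rpph1 (454 ± 115 CPM, adjusted p = 0.155), Map3k1 (159 ± 19.6 CPM, adjusted p = 0.837) and H2-K1 (779 ± 382 CPM, adjusted p = 0.52) did not pass the test between the weeks. These genes were picked from those named above to show each course.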

How the data were processed

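RNA was extracted from aortas with TRIzol and an RNeasy Micro kit, and libraries were made with a TruSeq kit of version 2, which does not mark strand, per the labels' protocols. The authors deposited whole-number counts for each RefSeq accession and library, and bcl2fastq, DESeq2 and the build mm10 are named without versions per the submitters' processing notes. How reads were aligned and counted, and on which release, is not given in the sources used here. For PPE week 1 a table the authors deposited gives a log2 fold change per accession. It also gives the authors' p-value and adjusted p-value, which were used only where that table is named.

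Accessions were matched to RefSeq mouse symbols, and a gene stands by its tested accession of highest mean. All 12 libraries were fitted with edgeR 4.0.16 in R 4.3.3 (filterByExpr, TMM scaling, quasi-likelihood test, Benjamini-Hochberg adjustment over 12756 accessions). CPM are counts per 1000000 of the TMM-scaled library. The common biological coefficient of variation was 0.512. The test was tried on simulated data whose spread was set lower than that fitted to these libraries. Alternatives used limma 3.58.1 and DESeq2 1.42.0. Each animal is taken as 1 library; the p-values measure the spread between these libraries. Intervals on counts cover counting error only.

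Named are the 12 higher and 12 lower genes of smallest p whose groups do not overlap and whose mean is at least 5 CPM in 1 group, outside the contractile, channel and macrophage lists. In every other list the 2 called genes of smallest p were named, or the member of highest mean where none was called. Other genes were picked as examples after their values were seen. The members and lists were chosen with earlier results of these data known. The authors' comparison for PPE week 2 was not used here. Some genes that entered the counts are not reported here by name.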

Additional observations from a re-analysis of the deposited data

Results flagged for a closer look

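In 200 groups of 4 libraries, over the named genes, the total counts and the NR_046233 shares, 18 values lay apart from the other 3 by more of the group's range than Dixon's 95% critical value, where chance gives about 1 in 20. They fell in every one of the 8 libraries, 5 of them in saline replicate 1 and 4 in PPE week 1 replicate 2.

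Saline replicate 1 was low for Arpc3 (118.6 CPM) and Hspa1a (16.98 CPM), and high for Cxcl10 (19.24 CPM), Lama1 (0.1741 CPM, the other 3 at 0) and the fat and muscle carbonic anhydrase gene Car3 (2258 CPM, the others at 553 to 802.1 CPM). Saline replicate 2 was high for Mag (0.894 CPM, the other 3 at 0), and saline replicate 3 low for Cavin1 (606.7 CPM). Saline replicate 4 was high for 3 genes that fell at PPE week 1, Dmd (672.2 CPM), Rgs5 (4396 CPM) and Ntn1 (139.1 CPM).

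PPE week 1 replicate 2 was high for Eef1a1 (2028 CPM), Lama1 (13.16 CPM) and Notch1 (153.8 CPM) and low for Dkk3 (65.36 CPM). PPE week 1 replicate 4 was high for Hspa1a (9.28 CPM) and Wnt16 (8.481 CPM), replicate 3 for Ogn (145.4 CPM) and replicate 1 for the mesothelial gene Wt1 (17.81 CPM, the others at 4.645 to 5.537 CPM). What sets these libraries apart was not tested.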

How the results depend on the processing

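The counts of accessions called higher and lower, 508 and 499, stayed within 1.5 times with DESeq2 size factors, no low-count filter, NR_046233 left out, halved counts, limma-voom and the accessions of a gene summed. They were 1113 and 913 with only the 8 libraries, 1034 and 195 with library size only, 23 and 59 with the NR_046233 share as a covariate and 857 and 789 with DESeq2. Leaving out 1 library gave 156 to 789 higher and 222 to 607 lower, the extremes without PPE week 1 replicate 2 and PPE week 2 replicate 1. The NR_046233 share difference without 1 library lay between -12.7 and -7.87 percentage points, each with an exact permutation p of 0.0571, the smallest that 3 against 4 allows. The replicate numbers did not pair the libraries, since same-numbered libraries had r of -0.0111, 0.00546, -0.0519 and -0.0178 across accessions. With the replicate block 419 were higher and 446 lower, and the calls of Car9 and Ccl3 were lost. Uncalled log2 fold changes changed sign for Ncl (0.16 with library size only, 0.020 with the covariate), Eef1a1 (0.26 with library size only, 0.051 with the covariate, and -0.0895 to 0.034 without 1 library), Psme4 (0.17 with library size only, and -0.152 to 0.0079 without 1 library) and Atp5a1 (0.10 with library size only). The cause was not tested. Of 87 named genes called, 29 were called under every alternative. Genes with several accessions were often too thinly counted to test.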
